A study of Mus musculus with 98 samples.

Results

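The mitosis genes described here are 35 mouse genes that carry cells through division, 35 of the 21813 gene symbols found across the deposited count tables. They were listed by name, with earlier results of these data known, and each was present in all 9 tables and kept by the filter on low counts in each. They fall into cyclins and the kinase Cdk1 (4 genes), the Cdc25 phosphatases (2), mitotic kinases (7), spindle checkpoint proteins (2), genes of anaphase and the anaphase-promoting complex (4), motors and spindle proteins (6), kinetochore and centromere proteins (6), the chromosomal passengers Birc5 and Incenp (2), the topoisomerase Top2a and the transcription factor Foxm1.

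The RNA came from mouse TBLC, cultured totipotent blastomere-like cells, read as stranded total RNA. PrE-T cells were CD140-positive and EPI-T cells CD140-negative after 3 days in SLM medium, and undifferentiated TBLC were kept in 2MYCP medium. Unsorted cells after the same 3 days are called diffTBLC, and the arm TBLC_PlaB- had 8 h in SLM against TBLC_Ctrl in 2MYCP. The label PlaB- reads as without PlaB, so this arm may differ from TBLC_Ctrl in PlaB as well as in medium. The same may hold for the other comparisons with undifferentiated TBLC. diffTBLC were also treated with siVirma, siMettl3 or siNC and read at steady state, with siVirma or siNC1 and siIgf2bp3 or siNC2 followed by actinomycin D, or used for immunoprecipitation of RNA bound to Igf2bp3 or Ythdf2 with the input RNA beside it. Actinomycin D, which blocks transcription, was present in the 4 time courses for 0, 1, 2 and 3 h. The strain and derivation of TBLC, the number of lines and the source of the replicates are not given in the sources used here. In the siRNA and RIP experiments every group, controls included, had been differentiated for 3 days.

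Entry into mitosis is driven by Cdk1 bound to B cyclins, which the Cdc25 phosphatases switch on. Kinases such as Plk1 and the Aurora kinases build the spindle, and the spindle checkpoint (Bub1, Bub1b, Bub3, Mad2l1, Ttk) holds the anaphase-promoting complex, an E3 ubiquitin ligase, until chromosomes are attached. Most of these transcripts are made in G2 and mitosis under the MuvB complex with B-Myb and Foxm1. The complex acts through CHR elements close to the start site, and many of these promoters also hold CCAAT boxes. Since the transcripts are made in G2 and mitosis, their levels in bulk RNA move with the share of dividing cells. In bulk samples a smaller share of cells in G2 and mitosis and less RNA of these genes per cell cannot be told apart.

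RefSeq promoter windows (GRCm38.p6, 250 bases before to 50 after the start) were found for 28 of the 35 genes, and promoter elements are shown because many of these genes, though not all, carry them. No window was found for Ccna2, Cdc25c, Aurkb, Kif20a, Tpx2, Incenp and Foxm1. The CHR core was searched as TTTGAA or TTCGAA and the CCAAT box as CCAAT, both on either strand, and overlapping matches were each counted. Genes were counted, and a gene held a motif where any of its windows did. A CHR match was held by 21 of 28 genes (75%), against 51.2% of 84 other mitosis genes and 21.7% of all 27025 genes with a window. A CCAAT match was held by 22 of 28 genes (78.6%), against 65.5% of the other mitosis genes and 41.1% of all genes. Both motifs stood in 1 window in 19 of 28 genes (67.9%), against 39.3% of the other mitosis genes and 8.61% of all genes. In the last 100 bases before the start 21 of 28 genes (75%) held a CCAAT match. The shares there were 47.6% of the other mitosis genes and 21.6% of all genes. A CHR match was held there by 8 of 28 (28.6%), against 19% of the other mitosis genes and 7.18% of all genes. All 8 held a CCAAT match there too, while 9.52% of the other mitosis genes and 1.36% of all genes held both there. Matches are a description of letters in these windows, not of bound sites. The last 100 bases before the start are printed 5′ to 3′ on the strand of the gene, with CHR and CCAAT matches in capitals. Cdk1 (chr10:69352913-69353012, minus strand), Cdc20 (chr4:118437344-118437443, minus strand), Ube2c (chr2:164769829-164769928, plus strand) and Top2a (chr11:99024190-99024289, minus strand) are 4 of the 8 that hold both motifs there. Ccnb2 (chr9:70421555-70421654, minus strand) holds 3 CCAAT matches, Cdc25b (chr2:131186848-131186947, plus strand) holds 1, and Birc5 (chr11:117849137-117849236, plus strand) holds no match.
Cdk1: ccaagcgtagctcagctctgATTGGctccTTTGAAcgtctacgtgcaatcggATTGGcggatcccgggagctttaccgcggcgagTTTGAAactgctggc
Cdc20: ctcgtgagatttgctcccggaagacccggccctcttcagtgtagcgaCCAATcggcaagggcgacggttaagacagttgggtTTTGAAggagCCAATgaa
Ube2c: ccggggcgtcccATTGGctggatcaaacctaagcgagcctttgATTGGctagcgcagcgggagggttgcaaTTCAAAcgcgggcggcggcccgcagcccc
Top2a: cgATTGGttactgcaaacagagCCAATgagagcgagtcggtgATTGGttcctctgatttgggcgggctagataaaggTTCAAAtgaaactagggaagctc
Ccnb2: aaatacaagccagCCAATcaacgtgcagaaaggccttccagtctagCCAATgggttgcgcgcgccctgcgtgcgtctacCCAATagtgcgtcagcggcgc
Cdc25b: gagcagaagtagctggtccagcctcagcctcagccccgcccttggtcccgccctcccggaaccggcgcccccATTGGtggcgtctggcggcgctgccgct
Birc5: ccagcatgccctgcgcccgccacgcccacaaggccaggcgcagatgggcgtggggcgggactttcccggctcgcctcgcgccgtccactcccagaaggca
In this stretch Cdk1 shows 2 CHR and 2 CCAAT matches, and in Top2a, Cdc20 and Ube2c a single CHR match lies within 30 bases of the start. Cdc25b carries the CCAAT box too, and Birc5 has neither motif in its whole window. Whether the motifs go with the levels of these genes was not tested.

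The deepest libraries were those of the sorted cells, with 20302848 to 29471283 counts each, and the time courses, with 11433895 to 23145666. The Ythdf2 RIP had 2483808 to 12666298 counts a library, the Igf2bp3 RIP 5236928 to 12177033, and the steady-state siRNA libraries 3968442 to 4750020. Every group had n = 2. The sorted cells carried the markers of their labels: summed CPM of 8 primitive endoderm (PrE) markers was 14275 and 14295 in PrE-T, 185 and 185 in EPI-T and 1399 and 1358 in TBLC, and that of 6 pluripotency markers was 685 and 695 in PrE-T, 3040 and 2977 in EPI-T and 1447 and 1457 in TBLC. Markers of 2-cell embryos were at 10.3 and 10.9 CPM in PrE-T, 301 and 312 CPM in EPI-T and 147 and 144 CPM in TBLC. CPM are counts scaled to the size of the library, with TMM factors within a table, the value after ± is the standard error from the fit, and adjusted p-values come from edgeR with a threshold of 0.05. Since nothing says that replicates came from separate cultures, a p-value here speaks only of the spread between these libraries, which may be technical. CPM do not take account of transcript length, so levels are compared between groups and not between genes, and each table was normalized separately.

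The 4 libraries of siNC1 and siNC2 at 0 h stood apart from the later libraries of their own arms. Ribosomal protein genes made up 16.5% and 16.9% of counts in siNC1 and 15.9% and 15.7% in siNC2 at 0 h, against 9.39% to 13.4% and 7.82% to 11.6% in the same arms at 1 to 3 h. The libraries labelled siIgf2bp3 at 3 h had a higher share still, at 19.0% and 19.5%. The median absolute log2 difference over all genes between 0 and 1 h was 0.39 in siNC1 and 0.48 in siNC2, against 0.11 to 0.19 in the other arms. The control arms were not steady after that either. From 1 to 2 h it was 0.28 in siNC1 and 0.30 in siNC2, against 0.12 to 0.17 in the other arms. From 2 to 3 h it was 0.19 in siNC1 and 0.23 in siNC2, with siIgf2bp3 at 0.26. The targets were also checked. Virma measured 87.1 and 81.0 CPM in siVirma and 122 and 115 CPM in siNC at steady state (log2 change -0.50 ± 0.09, adjusted p = 1.88e-06 by edgeR). In the actinomycin D course it stood at -0.27 ± 0.06 in siVirma against siNC1 at 0 h and at -1.04 ± 0.04 over 1 to 3 h, and Igf2bp3, not the target there, at 0.07 ± 0.09 and -0.77 ± 0.05. Mettl3 measured 26.4 and 27.5 CPM in the libraries labelled siMettl3 and 31.2 and 29.7 CPM in siNC, a difference that was not called (-0.18 ± 0.15, adjusted p = 0.771 by edgeR). Igf2bp3 measured 28.7 and 25.3 CPM in the libraries labelled siIgf2bp3 at 0 h and 19.9 and 16.7 CPM in siNC2 at 0 h, so at that hour it went against the label (0.56 ± 0.08, adjusted p = 2.84e-07 by edgeR), while over 1 to 3 h it was lower (-0.58 ± 0.04, adjusted p = 1.49e-13), and siIgf2bp3 names these libraries by their label only. Virma, not the target there, moved alike in these libraries (0.48 ± 0.06 at 0 h and -0.51 ± 0.04 over 1 to 3 h).

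To see how the division genes stand in the sorted cells after 3 days in SLM, PrE-T and EPI-T were each compared with TBLC. In both sorted populations most mitosis genes rose: 28 of 35 were higher and 2 lower in PrE-T, where 33.5% of all genes tested were called higher and 33.8% lower, and 32 were higher and 1 lower in EPI-T, where 30.1% were called higher and 34.8% lower. The median log2 change of the mitosis genes was 0.58 in PrE-T, against -0.03 over all genes, and 0.79 in EPI-T, against -0.07 over all genes. These comparisons share the TBLC libraries. The summed CPM of the 35 genes was 5518 and 5594 in PrE-T, 6898 and 6963 in EPI-T and 3776 and 3793 in TBLC, so that the groups did not overlap.

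**Figure D1:**
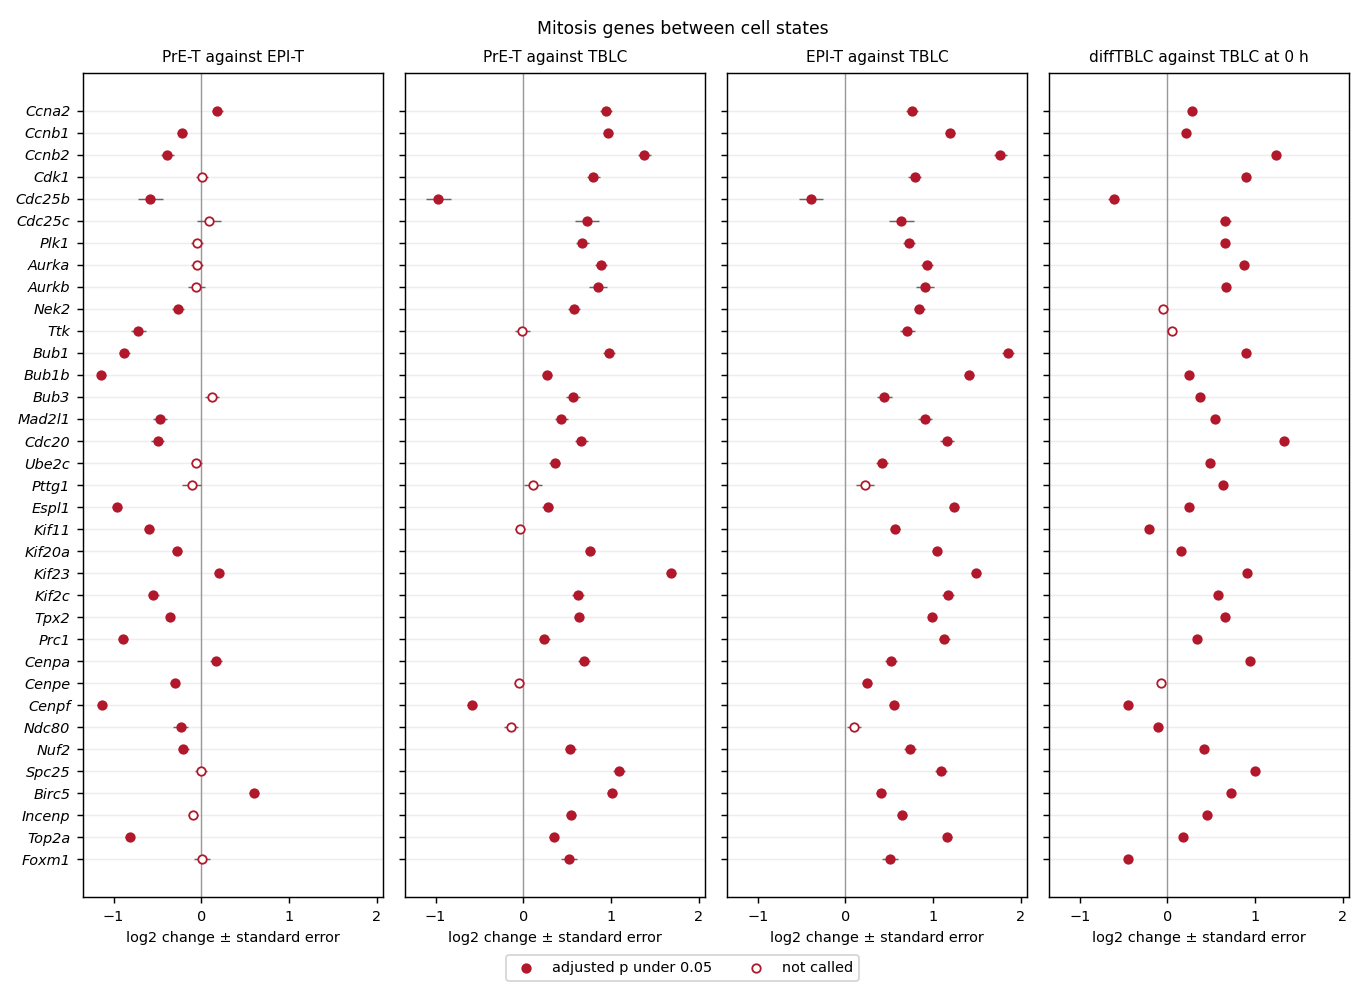
Log2 change of each of the 35 mitosis genes (rows, in the order of their roles) in 4 comparisons, with the standard error of the edgeR fit as bars. Filled points have an adjusted p under 0.05: 4 higher and 20 lower in PrE-T against EPI-T, 28 and 2 in PrE-T against TBLC, 32 and 1 in EPI-T against TBLC, and 27 and 5 in diffTBLC against TBLC at 0 h.

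Among the cyclins and Cdk1, all 4 rose in both populations. Ccnb2, a B cyclin, measured 95.3 and 102 CPM in PrE-T, 123 and 134 CPM in EPI-T and 37.7 and 38.0 CPM in TBLC. The log2 change was 1.38 ± 0.07 in PrE-T (adjusted p = 3.84e-11) and 1.77 ± 0.07 in EPI-T (adjusted p = 1.96e-12, both by edgeR). Both sorted groups lay far above the TBLC libraries. Ccnb1, the main mitotic cyclin, measured 237 and 242 CPM in PrE-T, 279 and 279 CPM in EPI-T and 125 and 120 CPM in TBLC (0.97 ± 0.06 and 1.19 ± 0.06). Cdk1 itself measured 129 and 112 CPM in PrE-T, 119 and 121 CPM in EPI-T and 69.8 and 69.0 CPM in TBLC (0.80 ± 0.07 and 0.79 ± 0.07). The sorted populations overlapped in Cdk1 and both stood above TBLC. The phosphatases parted: Cdc25c rose in both, while Cdc25b measured 10.1 and 11.1 CPM in PrE-T, 16.4 and 15.4 CPM in EPI-T and 20.1 and 21.5 CPM in TBLC (-0.97 ± 0.14, adjusted p = 1.21e-05, and -0.39 ± 0.14, adjusted p = 0.021 by edgeR). Cdc25b was the single gene of the 35 called lower in EPI-T, a call that was lost when EPI-T replicate 2 or TBLC replicate 2 was left out and with DESeq2 (0 genes lower).

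Of the 7 mitotic kinases, 6 rose in PrE-T and 7 in EPI-T, where their changes ran from 0.71 to 1.85. Bub1, a checkpoint kinase of the kinetochore, measured 99.2 and 99.4 CPM in PrE-T, 188 and 176 CPM in EPI-T and 51.1 and 49.9 CPM in TBLC (0.98 ± 0.07 and 1.85 ± 0.07). Bub1b, the checkpoint protein BubR1, measured 190 and 187 CPM in PrE-T, 414 and 414 CPM in EPI-T and 162 and 150 CPM in TBLC (0.27 ± 0.06 and 1.41 ± 0.06). In PrE-T the direction of Bub1b turned with the scaling: with library totals in place of TMM it was -0.05. Plk1, which acts at centrosomes, kinetochores and the midbody, stood at 0.67 ± 0.07 in PrE-T and 0.72 ± 0.07 in EPI-T, and Aurkb, the kinase of the chromosomal passenger complex, at 0.85 ± 0.11 and 0.91 ± 0.11. Ttk, the kinase that starts checkpoint signalling, was called in EPI-T alone, with 45.8 and 44.5 CPM in PrE-T, 72.7 and 75.8 CPM in EPI-T and 43.2 and 47.8 CPM in TBLC.

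The checkpoint proteins Bub3 and Mad2l1 rose in both populations. Of the anaphase genes, Cdc20, which activates the anaphase-promoting complex, stood at 0.66 ± 0.07 in PrE-T and 1.16 ± 0.07 in EPI-T. Espl1, the separase that cuts cohesin, measured 110 and 108 CPM in PrE-T, 217 and 206 CPM in EPI-T and 87.6 and 91.7 CPM in TBLC (EPI-T 1.24 ± 0.06). Pttg1, the securin that holds separase inactive, was not called in either (0.11 ± 0.10 in PrE-T and 0.22 ± 0.11 in EPI-T). Kif23, a motor of the central spindle needed for cytokinesis, measured 339 and 351 CPM in PrE-T, 294 and 307 CPM in EPI-T and 108 and 106 CPM in TBLC, the largest rise of the 35 genes in PrE-T (1.69 ± 0.06) and among the largest in EPI-T (1.49 ± 0.06). All 6 motors and spindle proteins rose in EPI-T and 5 in PrE-T, Kif11, the motor that pushes spindle poles apart, being uncalled there (-0.04 ± 0.06).

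The kinetochore and centromere genes did not move together. Spc25, a subunit of the Ndc80 complex, stood at 1.09 ± 0.07 in PrE-T, whereas Ndc80 of the same complex was not called in either population (-0.14 ± 0.08 in PrE-T and 0.10 ± 0.08 in EPI-T). Cenpf, a kinetochore and nuclear matrix protein, measured 209 and 223 CPM in PrE-T, 478 and 469 CPM in EPI-T and 325 and 323 CPM in TBLC. It fell in PrE-T (-0.59 ± 0.05, adjusted p = 3.59e-08) and rose in EPI-T (0.55 ± 0.05, adjusted p = 7.4e-08 by edgeR). Birc5 (survivin) measured 576 and 638 CPM in PrE-T, 394 and 405 CPM in EPI-T and 295 and 308 CPM in TBLC. Top2a, which untangles sister chromatids, measured 426 and 406 CPM in PrE-T, 719 and 744 CPM in EPI-T and 328 and 326 CPM in TBLC. Foxm1, which drives transcription of the G2 and mitosis genes, measured 60.9 and 61.2 CPM in PrE-T, 56.3 and 65 CPM in EPI-T and 44.3 and 40.7 CPM in TBLC (0.52 ± 0.09 and 0.51 ± 0.09).

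Of 97 other mitosis genes taken from a list of their functions, 52 were higher and 19 lower in PrE-T (median 0.22) and 78 were higher and 5 lower in EPI-T (median 0.71), both against TBLC. All 14 condensin and cohesin genes rose in EPI-T, and 6 of them in PrE-T. By the lowest adjusted p, E2f8, a repressor of cell cycle genes, stood at 1.71 ± 0.08 in PrE-T and 3.06 ± 0.08 in EPI-T, and the abscission gene Cep55 at -2.05 ± 0.08 in PrE-T. TBLC differed from the sorted cells also in 16 fibroblast and feeder markers. Their summed CPM was 306 and 307 in PrE-T, 79.9 and 80.9 in EPI-T, where Lum was at 0, and 1581 and 1525 in TBLC. Of these markers 15 of 16 were lower in PrE-T and 16 of 16 in EPI-T. Whether their RNA came from other cells was not tested. The part of these markers in the rise of the mitosis genes was not tested either. With library totals the median of all genes moved by over 0.1, to -0.35 in PrE-T and -0.28 in EPI-T, and the mitosis genes split into 21 higher and 6 lower in PrE-T and 31 and 1 in EPI-T. Set against the median of all genes, they stood 0.61 higher in PrE-T and 0.86 higher in EPI-T under either scaling.

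**Figure D2:**
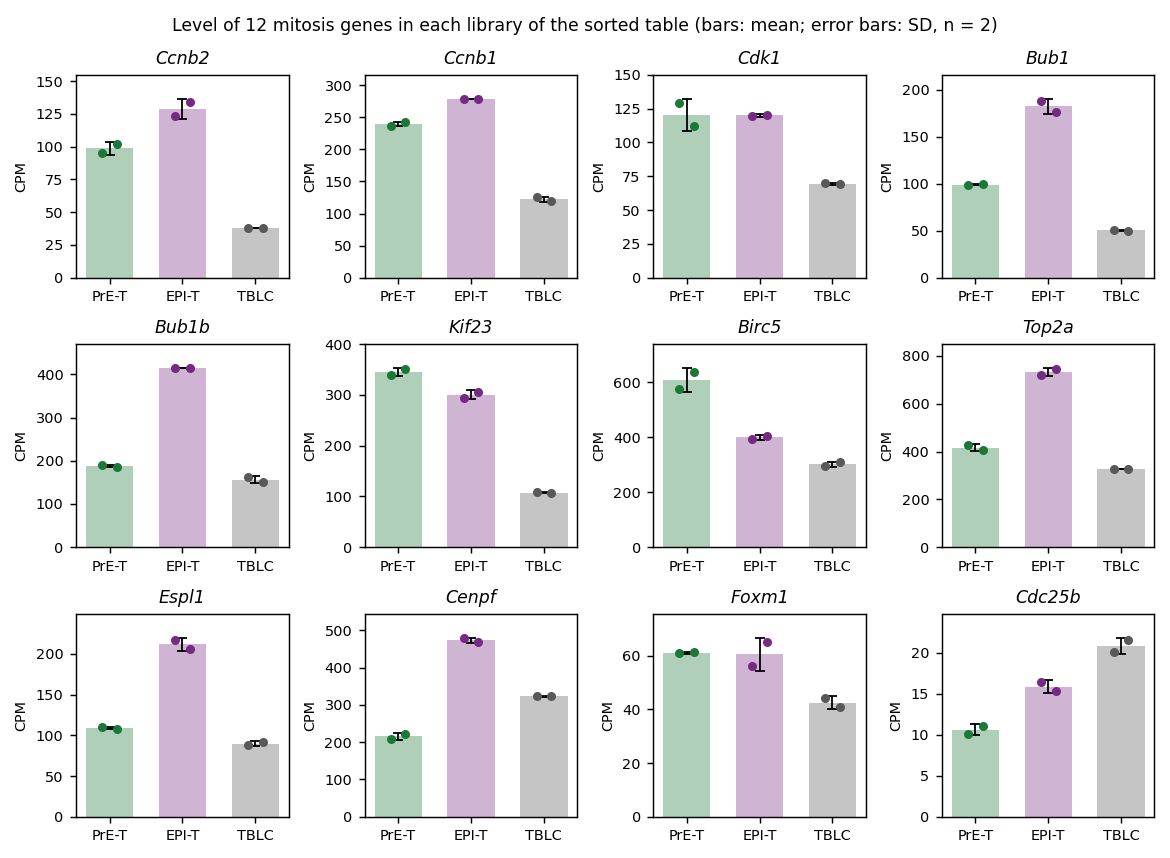
CPM of 12 mitosis genes in the 6 libraries of the sorted table, with PrE-T, EPI-T and TBLC from left to right, points for libraries, bars for the mean and error bars for the SD (n = 2). Bub1b lies at 190 and 187 CPM in PrE-T against 414 and 414 CPM in EPI-T, while Birc5 is highest in PrE-T and Cdc25b highest in TBLC.

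The sorted populations were then compared with each other, which shows whether division genes part between the PrE and the epiblast side. In PrE-T 20 of the 35 genes were lower and 4 higher than in EPI-T, where 32.8% of all genes tested were called lower and 35.8% higher. The median was -0.23, against 0.03 over all genes, and 6 genes lay above the median of all genes. The genes that fell furthest were Bub1b, Cenpf, Espl1, Prc1, Bub1 and Top2a, while Ccna2, Kif23, Cenpa and Birc5 rose.

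Bub1b, with the values given above, fell by 1.14 on the log2 scale (standard error 0.06, adjusted p = 7.15e-12), and Cenpf fell by 1.13 (0.05, adjusted p = 4.18e-12, both by edgeR). In both genes the PrE-T libraries lay below both EPI-T libraries. Espl1 stood at -0.96 ± 0.06, Bub1 at -0.88 ± 0.06, Top2a at -0.81 ± 0.05 and Ttk at -0.72 ± 0.08. Prc1, which bundles microtubules of the central spindle, measured 96.8 and 93.7 CPM in PrE-T and 178 and 176 CPM in EPI-T (-0.89 ± 0.06). Of the 6 motors and spindle proteins 5 fell, while Kif23 rose by 0.20 ± 0.05 (adjusted p = 0.00302). Birc5 rose by 0.60 ± 0.06 (adjusted p = 4.63e-08 by edgeR), with PrE-T libraries at 576 and 638 CPM above EPI-T libraries at 394 and 405 CPM. Ccna2, an S and G2 cyclin, rose by 0.18 ± 0.06 and Cenpa, the histone variant that marks centromeres, by 0.17 ± 0.07, and both calls were lost when 1 library was left out. Without EPI-T replicate 2 the number of genes called higher was 2.

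The genes of mitotic entry were called in part between PrE-T and EPI-T. Those not called included Cdk1 at 0.01 ± 0.07 (adjusted p = 0.924), Plk1 at -0.05 ± 0.07 (adjusted p = 0.543), Aurkb at -0.05 ± 0.10 (adjusted p = 0.652) and Foxm1 at 0.01 ± 0.09 (adjusted p = 0.913, all by edgeR). The small differences of Cdk1 and Foxm1 turned negative with DESeq2, RLE scaling and library totals. The B cyclins fell, Ccnb1 by 0.22 ± 0.05 and Ccnb2 by 0.38 ± 0.07, and so did Cdc25b, by 0.58 ± 0.14 (adjusted p = 0.00182 by edgeR). Among the 97 other mitosis genes 61 fell and 11 rose (median -0.45), with Cep55 at -2.56 ± 0.08, Aspm, a spindle pole protein, at -1.62 ± 0.07 and Nusap1, a microtubule-binding protein, at -1.66 ± 0.07. Of 14 condensin and cohesin genes 12 fell and 1 rose. Fibroblast and feeder markers were higher in PrE-T (15 of 16), and their part in these differences was not tested. With library totals 23 of the 35 genes were lower and 1 higher. The median of all genes was then -0.08, and 46.4% of all genes called were higher.

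The unsorted culture gave a separate view of the change of state, from other libraries and another table. In diffTBLC at 0 h of actinomycin D, 27 of 35 mitosis genes were higher and 5 lower than in TBLC at 0 h, where 42.8% of all genes tested were called higher and 39.7% lower. The median was 0.45, against 0.02 over all genes, and 28 genes lay above the median of all genes. Summed CPM of the 35 genes was 5840 and 5847 in diffTBLC and 4301 and 4283 in TBLC.

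The largest rise was that of Cdc20, with 339 and 342 CPM in diffTBLC against 137 and 134 CPM in TBLC (1.33 ± 0.03, adjusted p = 2.07e-60 by edgeR). Ccnb2 measured 173 and 163 CPM in diffTBLC against 70.4 and 72.3 CPM in TBLC (1.24 ± 0.04). Spc25 measured 107 and 111 CPM against 54.8 and 53.9 CPM in TBLC (1.00 ± 0.04). In these 3 genes every diffTBLC library lay clearly above both TBLC libraries. Cenpa (0.94 ± 0.03), Kif23 (0.91 ± 0.03), Bub1 (0.90 ± 0.03) and Cdk1 (0.89 ± 0.03) rose by nearly as much. Cdk1 measured 262 and 261 CPM in diffTBLC and 141 and 141 CPM in TBLC. Plk1 (0.65 ± 0.04) and Aurkb (0.67 ± 0.04) rose less, and Ccnb1 (0.22 ± 0.03) and Bub1b (0.24 ± 0.03) less again. Top2a rose by 0.18 ± 0.02 but turned to -0.03 with library totals.

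The genes that fell were Cdc25b, Foxm1, Cenpf, Kif11 and Ndc80. Cdc25b measured 20.3 and 21.4 CPM in diffTBLC and 31.4 and 32.5 CPM in TBLC (-0.61 ± 0.06). Foxm1 measured 47.0 and 48.7 CPM in diffTBLC and 65.2 and 65.7 CPM in TBLC (-0.45 ± 0.05, adjusted p = 1.2e-14 by edgeR). Cenpf measured 91.0 and 95.0 CPM in diffTBLC and 126 and 128 CPM in TBLC (-0.45 ± 0.04). None of the 3 overlapped between the groups. Set beside the sorted cells, which are other libraries in another table, 26 genes were higher in both PrE-T and diffTBLC than in their TBLC, and Cdc25b and Cenpf were lower in both, where 27.1% of all genes tested in both tables were higher and 24.8% lower in both. Foxm1 was higher in PrE-T and lower in diffTBLC, as were 3.98% of all genes tested in both. Beside EPI-T, 26 genes were higher in both and Cdc25b was lower in both, where 20% of all genes were higher and 19.7% lower in both. Kif11, Cenpf and Foxm1 were higher in EPI-T and lower in diffTBLC, as were 7.47% of all genes.

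Of the 97 other mitosis genes 49 were higher and 34 lower in diffTBLC (median 0.11). Ube2s, an E2 enzyme of the anaphase-promoting complex, rose by 1.18 ± 0.03, E2f8 by 1.91 ± 0.05 and Cks1b, a Cdk-binding protein, by 0.98 ± 0.03. Of 14 condensin and cohesin genes 4 rose and 7 fell. Fibroblast and feeder markers summed to 342 and 337 CPM in diffTBLC and 589 and 600 CPM in TBLC, and their part in the result was not tested. With library totals, which moved the median of all genes to -0.18, the mitosis genes split into 22 higher and 8 lower.

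After 8 h in SLM no such change was called. In TBLC_PlaB- against TBLC_Ctrl at 0 h of actinomycin D, 0 of 35 mitosis genes were called by edgeR in either direction and 0 by DESeq2, with 5 at an unadjusted p under 0.05, while 0.78% of all genes tested were called higher and 0.475% lower. The median was 0.01, against 0.00 over all genes. Cdk1 measured 150 and 145 CPM in TBLC_PlaB- and 150 and 149 CPM in TBLC_Ctrl. Ube2c, the E2 enzyme that starts ubiquitin chains of the anaphase-promoting complex, measured 196 and 198 CPM in TBLC_PlaB- and 203 and 216 CPM in TBLC_Ctrl (-0.09 ± 0.03, adjusted p = 0.131). Plk1 stood at 0.07 ± 0.04 (adjusted p = 0.505, both by edgeR). Its groups did not overlap, at 106 and 102 CPM in TBLC_PlaB- and 96.2 and 101 CPM in TBLC_Ctrl. Of the 97 other mitosis genes only Cdc27, a subunit of the anaphase-promoting complex, was called (0.15 ± 0.04, adjusted p = 0.0316 by edgeR).

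To follow transcript stability, each arm of a course was fitted against hours of actinomycin D. A slope, in log2 units per hour, is relative to the centre of all transcripts, since no spike-in is described, so a positive slope marks a transcript lost more slowly than most and is not a gain of RNA. In diffTBLC 8 of the 35 slopes were positive and 15 negative, where 30.8% of all genes tested were called positive and 28.6% negative. In TBLC 19 were positive and 8 negative, where 37.2% were called positive and 28.1% negative. The medians were -0.04 in diffTBLC, against 0.01 over all genes, and 0.07 in TBLC, against 0.04 over all genes. The directions hang on the scaling. With DESeq2 and with RLE scaling 12 were positive and 10 negative in diffTBLC and 19 and 8 in TBLC. Scaled to ribosomal protein genes all 35 slopes were negative in both arms (0 positive). With library totals 3 were positive and 25 negative in diffTBLC and 4 and 17 in TBLC. All genes shifted alike. Of all genes called, 0.205% in diffTBLC and 0.0945% in TBLC were positive with the ribosomal scaling, and 20.1% and 26% with library totals. The share of ribosomal protein genes was 9.95% and 9.95% at 0 h and 14.6% and 14.2% at 3 h in diffTBLC, and 7.50% and 7.47% at 0 h and 10.9% and 11% at 3 h in TBLC. Set against the median of all genes, the mitosis genes stood at -0.05 in diffTBLC and 0.03 in TBLC under each scaling.

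**Figure D3:**
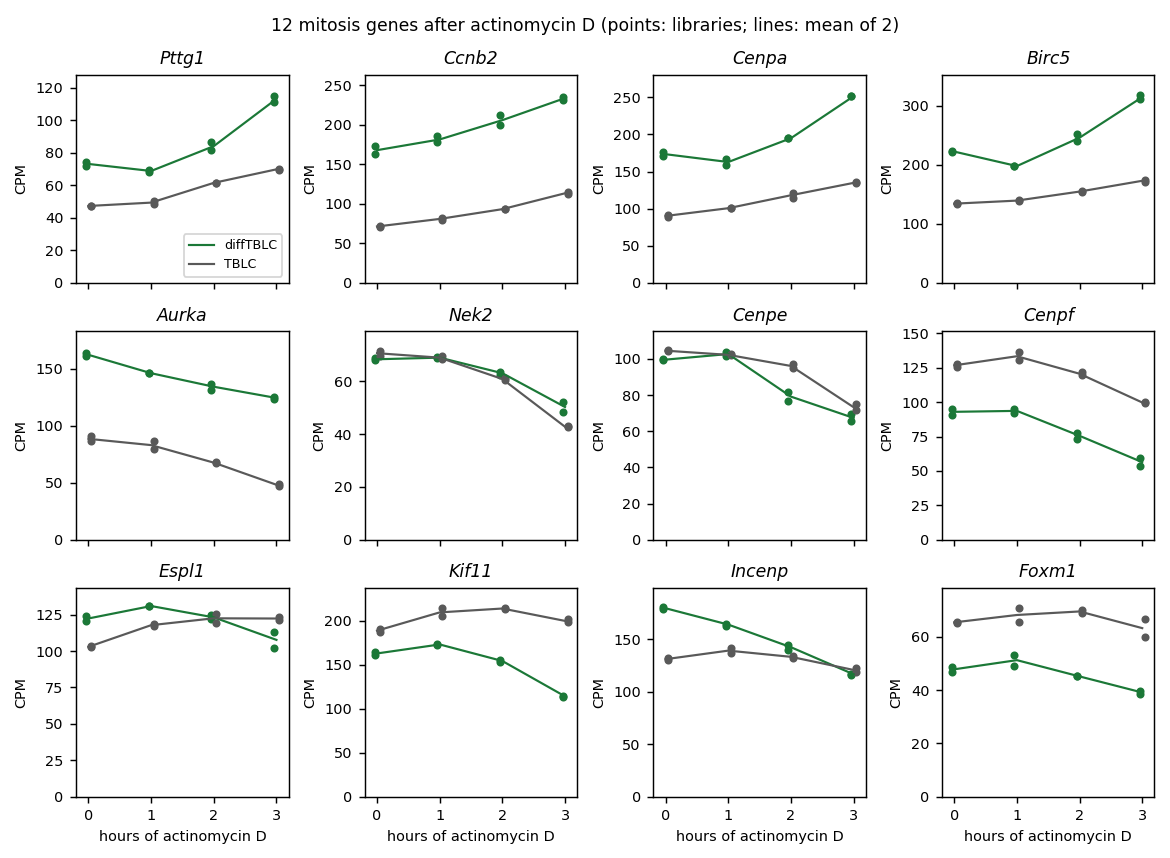
CPM of 12 mitosis genes by hours of actinomycin D in diffTBLC (green) and TBLC (grey), with a point for each library and lines through the mean of 2. Between 0 and 3 h Pttg1, Ccnb2, Cenpa and Birc5 gain share in both states, and Aurka, Nek2, Cenpe and Cenpf lose it. Kif11 and Incenp fall between these hours in diffTBLC and change less in TBLC. Not all courses are steady: at 1 h in diffTBLC Pttg1, Cenpa and Birc5 lie below 0 h and Kif11 above it, as does Cenpf in TBLC.

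Of the 35 slopes 15 were called with the same sign in both states, whose libraries are separate, and 49.4% of all genes tested had the same sign in both. The 8 positive in both were Ccnb2, Bub3, Mad2l1, Cdc20, Ube2c, Pttg1, Cenpa and Birc5, and the 7 negative in both were Ccnb1, Plk1, Aurka, Aurkb, Nek2, Cenpe and Cenpf. Espl1 and Ndc80 were negative in diffTBLC and positive in TBLC, as were 0.394% of all genes tested. Some of these calls were lost when 1 library was left out. In diffTBLC they were those of Espl1, Ndc80, Ccnb1, Aurkb and Nek2, and in TBLC those of Espl1 and Plk1. Pttg1 measured 74.5 and 71.9 CPM at 0 h and 115 and 111 CPM at 3 h in diffTBLC, with a slope of 0.22 ± 0.03. In TBLC it measured 47.6 and 47.0 CPM at 0 h and 70.1 and 69.6 CPM at 3 h, with a slope of 0.20 ± 0.03. The libraries at 3 h lay above those at 0 h in both states. Ccnb2 had slopes of 0.16 ± 0.02 and 0.22 ± 0.02, Cenpa 0.19 ± 0.03 and 0.20 ± 0.03, and Birc5 0.18 ± 0.03 and 0.12 ± 0.03, each in diffTBLC and then in TBLC.

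Aurka, the kinase of spindle poles, measured 161 and 164 CPM at 0 h and 124 and 125 CPM at 3 h in diffTBLC (slope -0.13 ± 0.03). In TBLC it measured 90.9 and 86.3 CPM at 0 h and 47.4 and 49.1 CPM at 3 h (slope -0.29 ± 0.03). The slope was steeper in TBLC. Nek2, a kinase of centrosome separation, had slopes of -0.14 ± 0.03 in diffTBLC and -0.23 ± 0.03 in TBLC. Cenpe, the kinetochore motor, had slopes of -0.21 ± 0.03 in diffTBLC and -0.16 ± 0.03 in TBLC, and Cenpf of -0.24 ± 0.04 and -0.12 ± 0.03. The cyclins parted within both arms, Ccnb1 at -0.08 ± 0.03 in diffTBLC and -0.11 ± 0.03 in TBLC with Ccnb2 positive in both.

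The difference between the slopes was tested directly. The slope in diffTBLC was higher than in TBLC for 1 gene and lower for 6, where 2.56% of all genes tested were called higher and 5.66% lower, and the median difference was -0.06, against -0.02 over all genes. Aurka was the gene with the higher slope in diffTBLC (0.16 ± 0.04, adjusted p = 0.0109). Kif11 measured 161 and 165 CPM at 0 h and 115 and 113 CPM at 3 h in diffTBLC, against 191 and 187 CPM at 0 h and 202 and 198 CPM at 3 h in TBLC (difference -0.20 ± 0.05, adjusted p = 0.0141, both by edgeR). Incenp, the scaffold of the passenger complex, measured 179 and 181 CPM at 0 h and 116 and 117 CPM at 3 h in diffTBLC, against 132 and 130 CPM at 0 h and 119 and 123 CPM at 3 h in TBLC (-0.16 ± 0.03, adjusted p = 0.00172 by edgeR). In diffTBLC Incenp fell at each hour, while Kif11 stood at 174 and 173 CPM at 1 h and fell only after that. Between 0 and 3 h both genes changed less in TBLC. Espl1 (-0.14 ± 0.03), Tpx2, a spindle assembly factor (-0.13 ± 0.03), Kif20a, a motor of cytokinesis (-0.12 ± 0.03) and Ndc80 (-0.12 ± 0.03) were the others. The 6 lower slopes rest on 3 h: without either diffTBLC library of that hour 0 were called lower, and with 0 h left out 7 were called higher and 15 lower. Scaled to ribosomal protein genes 0 were called in either direction.

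Among the 97 other mitosis genes 26 slopes were positive and 42 negative in diffTBLC, and 41 positive and 39 negative in TBLC. The steepest by adjusted p were the anaphase-promoting complex inhibitor Fbxo5 (-0.95 ± 0.05 in diffTBLC and -0.95 ± 0.05 in TBLC), the Cdk1 inhibitor kinase Wee1 (-0.97 ± 0.05 in diffTBLC) and the kinetochore gene Mis12 (-0.63 ± 0.04 in diffTBLC and -0.87 ± 0.04 in TBLC). In the 8 h arm the slopes of TBLC_PlaB- and TBLC_Ctrl were not called apart for any of the 35 genes by edgeR (9 at an unadjusted p under 0.05, and 1 by DESeq2), where 0.319% of all genes tested were called higher and 0.0922% lower. With 0 h left out 6 were called higher and 11 lower, and 3128 of all genes were called.

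Immunoprecipitation of Igf2bp3 and Ythdf2, readers of N6-methyladenosine of which Igf2bp3 is known to stabilise and Ythdf2 to destabilise bound transcripts, was compared with input RNA. Mitosis genes were split in both. In the Igf2bp3 IP 18 of 35 were higher and 14 lower than in input, where 35% of all genes tested were called higher and 34.8% lower. The count of higher genes is a larger share than the background and that of lower genes is close to it, and the median was 0.11, against -0.01 over all genes. In the Ythdf2 IP 12 were higher and 19 lower, where 40.2% were called higher and 38.8% lower, so that higher genes fell short of the background and lower genes exceeded it, and the median was -0.17, against 0.02. Neither experiment has an IgG control among the libraries used here, so an increase over input is relative to the other transcripts.

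**Figure D4:**
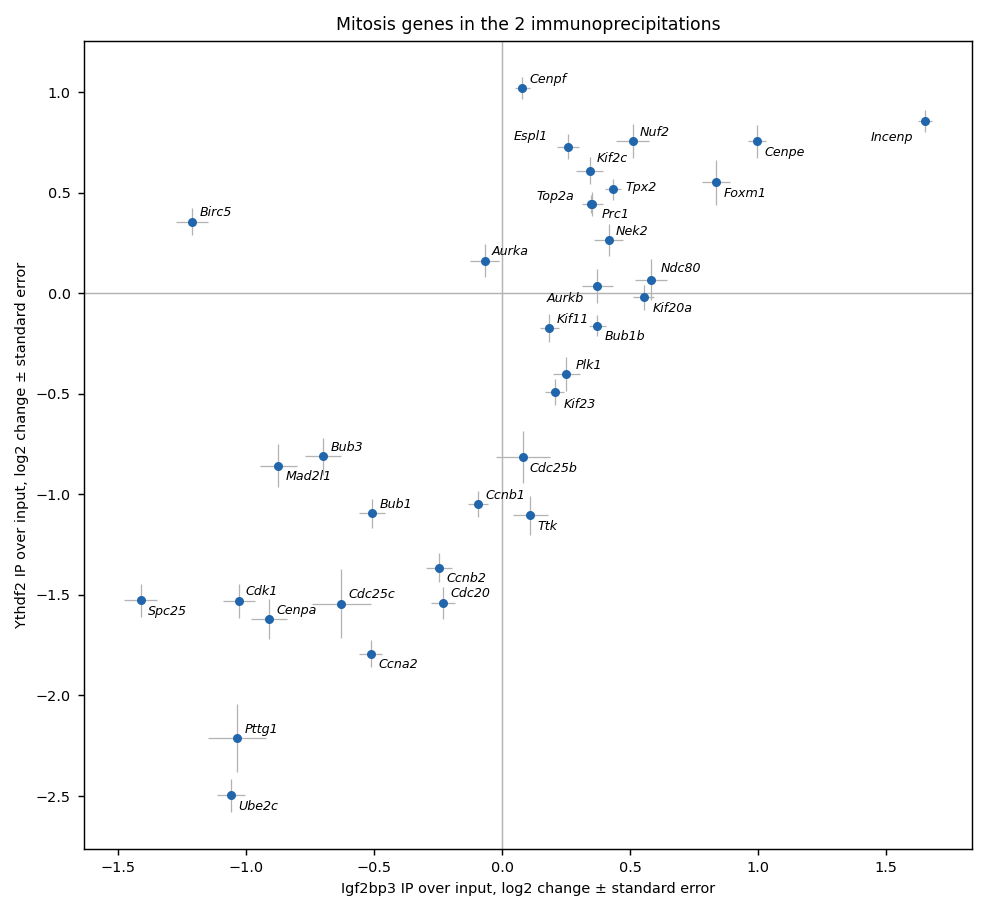
Log2 change of IP over input for the 35 mitosis genes in the Igf2bp3 (horizontal axis) and the Ythdf2 immunoprecipitation (vertical axis), with standard errors of the edgeR fits as bars. Incenp, Cenpe and Foxm1 lie at the upper right, Ube2c, Pttg1, Cdk1, Cenpa and Spc25 at the lower left, and Birc5 alone is low in the Igf2bp3 IP and high in the Ythdf2 IP.

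Incenp was enriched most in the Igf2bp3 IP, with 1109 and 1089 CPM in IP and 337 and 363 CPM in input (1.65 ± 0.03). In the Ythdf2 IP it measured 528 and 554 CPM, against 294 and 302 CPM in input (0.86 ± 0.05). Every IP library lay above every input library. Cenpe measured 569 and 563 CPM in the Igf2bp3 IP and 283 and 284 CPM in input (1.00 ± 0.04), and 135 and 146 CPM in the Ythdf2 IP against 79.1 and 86.7 CPM in input (0.76 ± 0.08). Foxm1 measured 160 and 153 CPM in the Igf2bp3 IP and 88.1 and 87.3 CPM in input (0.84 ± 0.05), and 69.2 and 58.5 CPM in the Ythdf2 IP and 44.2 and 42.6 CPM in input (0.55 ± 0.11). Nuf2, of the Ndc80 complex, stood at 0.51 ± 0.06 and 0.76 ± 0.09 in the Igf2bp3 and the Ythdf2 IP, and Top2a at 0.35 ± 0.02 and 0.44 ± 0.05. Cenpf was the most enriched gene in the Ythdf2 IP, at 626 and 677 CPM against 330 and 314 CPM in input (1.02 ± 0.05, adjusted p = 1.17e-27 by edgeR). In the Igf2bp3 IP it was barely higher (0.08 ± 0.03) and turned to -0.12 with library totals. Espl1 (0.73 ± 0.06) and Kif2c, a microtubule depolymerase (0.61 ± 0.07), were also enriched with Ythdf2.

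Lower in both IPs were all 4 of the cyclins and Cdk1, both checkpoint proteins Bub3 and Mad2l1, 3 of 4 anaphase genes and 2 of 6 kinetochore and centromere genes. For Ccnb1 the call in the Igf2bp3 IP was weak, and it was lost in 3 of the 4 fits that left out 1 library. Ube2c measured 75.1 and 74.9 CPM in the Igf2bp3 IP and 160 and 153 CPM in input (-1.06 ± 0.05), and 38.6 and 33.5 CPM in the Ythdf2 IP and 209 and 197 CPM in input (-2.50 ± 0.08). Pttg1 measured 16.6 and 16.8 CPM in the Igf2bp3 IP and 35.6 and 32.7 CPM in input, and 7.55 and 7.01 CPM in the Ythdf2 IP and 34.9 and 32.7 CPM in input (-2.21 ± 0.17). Both genes were depleted in every IP library. Spc25 stood at -1.41 ± 0.07 and -1.53 ± 0.08, Cdk1 at -1.03 ± 0.06 and -1.53 ± 0.08, and Cenpa at -0.91 ± 0.07 and -1.62 ± 0.10, each in the Igf2bp3 and then the Ythdf2 IP. Ccna2 (-1.79 ± 0.07), Cdc20 (-1.54 ± 0.08), Cdc25c (-1.54 ± 0.17) and Ccnb1 (-1.05 ± 0.07) were depleted mainly in the Ythdf2 IP, the corresponding Igf2bp3 values being -0.51, -0.23, -0.63 and -0.09. Birc5 measured 54.3 and 50.9 CPM in the Igf2bp3 IP and 123 and 121 CPM in input (-1.21 ± 0.06). In the Ythdf2 IP it measured 208 and 207 CPM, against 172 and 153 CPM in input (0.36 ± 0.07). It was the one gene of the 35 low in the first and high in the second, as were 8.76% of all genes tested in both.

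Across the experiments, which share no libraries, 11 genes were higher in both and 13 lower in both. Of all genes tested in both, 19.7% were higher and 22.8% lower in both. Plk1, Bub1b, Kif11 and Kif23 were higher with Igf2bp3 and lower with Ythdf2, as were 7.84% of all genes. Of the 97 other mitosis genes 38 were higher and 41 lower in the Igf2bp3 IP, and 44 of the 96 tested were higher and 44 lower in the Ythdf2 IP. The proliferation antigen Mki67 was higher in both (0.87 ± 0.01 and 1.49 ± 0.05). Ribosomal protein genes made up 2.56% and 2.54% of counts in the Igf2bp3 IP and 5.53% and 5.66% in its input, and 2.34% and 2.34% in the Ythdf2 IP and 8.82% and 8.79% in its input, and the part of this shift in the depletion of other transcripts was not tested. With library totals the Igf2bp3 IP had 13 higher and 16 lower, with the median of all genes at -0.21. The inputs differed in PrE content, with summed PrE markers of 5299 and 5204 CPM beside the Igf2bp3 IP and 695 and 699 CPM beside the Ythdf2 IP.

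In the steady-state siRNA libraries few mitosis genes changed. In siVirma 2 of 35 were higher and 2 lower than in siNC, with 10 at an unadjusted p under 0.05, where 3.48% of all genes tested were called higher and 3.63% lower, shares near those of the mitosis genes. In siMettl3 2 were higher and 0 lower, with 5 at an unadjusted p under 0.05, where 0.412% were called higher and 0.453% lower. Both comparisons use the same siNC libraries. Cenpf measured 208 and 202 CPM in siVirma, 199 and 204 CPM in siMettl3 and 167 and 173 CPM in siNC (0.27 ± 0.06, adjusted p = 0.00106, and 0.25 ± 0.06, adjusted p = 0.0146 by edgeR). Top2a measured 703 and 673 CPM in siVirma, 704 and 669 CPM in siMettl3 and 623 and 611 CPM in siNC (0.16 ± 0.04 and 0.15 ± 0.04). In both genes every treated library lay above both siNC libraries.

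Cdc20 fell to 250 and 254 CPM in siVirma, against 274 and 299 CPM in siNC (-0.19 ± 0.05, adjusted p = 0.0123), and Incenp to 162 and 159 CPM, against 186 and 181 CPM in siNC (-0.20 ± 0.07, adjusted p = 0.043 by edgeR). The siVirma calls were weak to the choice of libraries. Leaving out either siNC or either siVirma library left 0 or 1 lower calls, leaving out siNC replicate 2 left 1 higher call, and DESeq2 called 2 higher and 0 lower. For siMettl3 leaving out any 1 of the 4 libraries left 0 or 1 of its 2 calls. Plk1 was at 164 and 152 CPM in siVirma, 141 and 147 CPM in siMettl3 and 143 and 131 CPM in siNC, and was not called in siVirma (0.20 ± 0.07, adjusted p = 0.0671 by edgeR). Of the 97 other mitosis genes 6 were higher and 0 lower in siVirma, led by the condensin gene Smc4 (0.24 ± 0.05), the centriole kinase Plk4 (0.42 ± 0.11) and Smc2 (0.20 ± 0.05), and 0 were called in siMettl3 by edgeR, with 9 at an unadjusted p under 0.05. PrE markers summed to 3292 and 3298 CPM in siVirma, 4599 and 4625 CPM in siMettl3 and 5322 and 5452 CPM in siNC, and their part in these values was not tested.

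In the actinomycin D courses of siVirma and siIgf2bp3 the control libraries at 0 h stand apart, as given above, so the difference at 0 h is set beside the difference averaged over 1 to 3 h. The control arms also changed more than the siRNA arms between 1 and 2 h, so this average does not come from a steady control. At 0 h 22 of the 35 genes were higher and 9 lower in siVirma than in siNC1, where 33.1% of all genes tested were called higher and 27.2% lower. Averaged over 1 to 3 h 7 were higher and 23 lower, where 35.5% were called higher and 36% lower. The medians were 0.20 at 0 h, against 0.05 over all genes, and -0.10 over 1 to 3 h, against 0.00. In the libraries labelled siIgf2bp3 24 were higher and 6 lower than in siNC2 at 0 h, where 41.2% were called higher and 24.6% lower, and 8 were higher and 20 lower over 1 to 3 h, where 32.9% were called higher and 37.1% lower. Their medians were 0.36, against 0.14 over all genes, and -0.16, against -0.02. With library totals siVirma had 26 higher and 4 lower at 0 h. The median of all genes was then 0.24, and 74.4% of all genes called were higher. For siIgf2bp3 over 1 to 3 h library totals gave 5 higher and 26 lower, while RLE scaling gave 12 and 18. With library totals the median of all genes there was -0.15, and 31.7% of all genes called were higher. Set against the median of all genes, the mitosis genes stood at 0.15 and -0.14 in these comparisons, with TMM and with library totals. Summed PrE markers were 1073 and 1059 CPM in siVirma and 1894 and 1830 CPM in siNC1 at 0 h, and 992 to 1074 CPM in siVirma and 2414 to 3167 CPM in siNC1 over 1 to 3 h. They were 2108 and 2153 CPM in siIgf2bp3 and 1867 and 1883 CPM in siNC2 at 0 h, and 2040 to 2214 CPM in siIgf2bp3 and 2669 to 3698 CPM in siNC2 over 1 to 3 h, and their part in these differences was not tested.

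**Figure D5:**
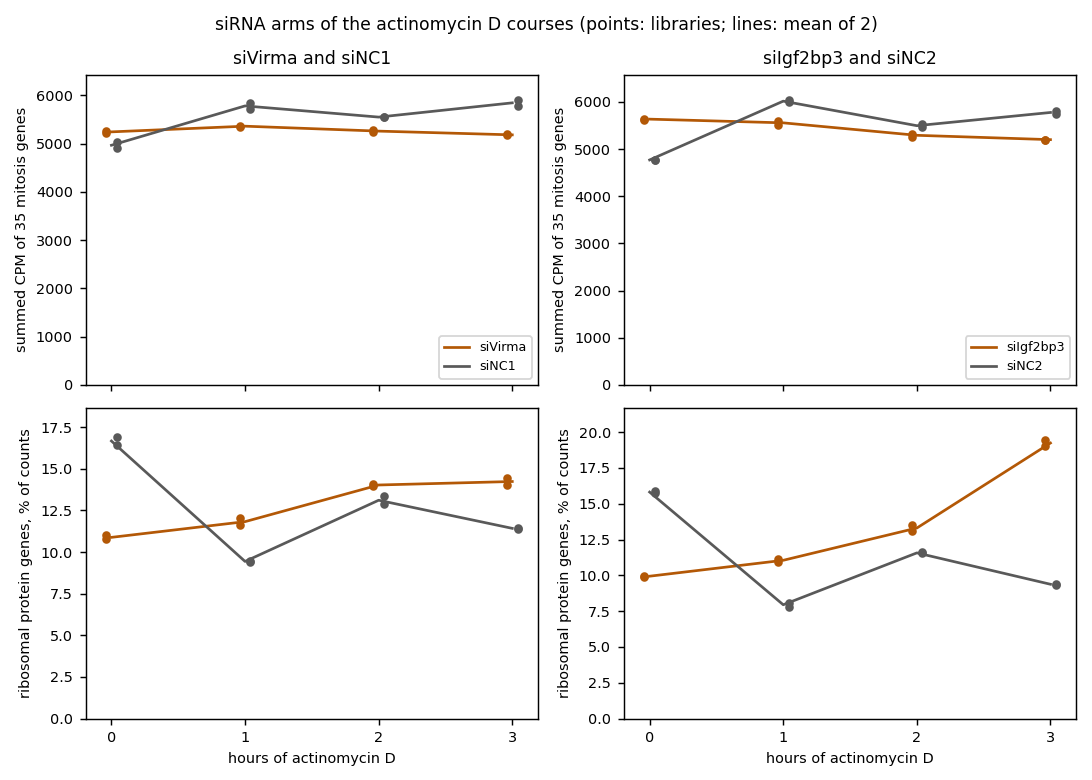
Summed CPM of the 35 mitosis genes (top) and percent of counts in ribosomal protein genes (bottom) by hours of actinomycin D, with siVirma or siIgf2bp3 in orange and siNC1 or siNC2 in grey, points for libraries and lines through the mean of 2. The control arms at 0 h are low in the sum and high in the ribosomal share, and cross the siRNA arms by 1 h, and the siIgf2bp3 arm has its highest ribosomal share at 3 h.

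The genes changed sides between the hours. In siVirma 18 genes were higher at 0 h and lower over 1 to 3 h, and 4 the reverse, and in siIgf2bp3 19 and 6 did so. Over all genes tested 15.4% and 12.9% did so in siVirma, and 30.7% and 21.2% in siIgf2bp3, so that the change of sides was not confined to mitosis genes. Kif20a measured 188 and 184 CPM in siVirma at 0 h against 109 and 111 CPM in siNC1 (0.76 ± 0.04). At 1 h it measured 180 and 179 CPM in siVirma and 216 and 225 CPM in siNC1. The siVirma libraries stayed near one level, while the siNC1 libraries were low at 0 h. In siIgf2bp3 it measured 203 and 201 CPM at 0 h against 113 and 108 CPM in siNC2 (0.87 ± 0.04), and 121 and 129 CPM at 3 h against 251 and 252 CPM in siNC2. Ccnb1 measured 269 and 275 CPM in siVirma at 0 h against 206 and 194 CPM in siNC1, and 265 and 263 CPM at 1 h against 342 and 334 CPM in siNC1. Here too the siRNA arm changed less between the hours than the control arm.

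A smaller group moved the other way. Birc5 measured 227 and 220 CPM in siVirma at 0 h against 305 and 322 CPM in siNC1, and 239 and 235 CPM at 1 h against 178 and 177 CPM in siNC1. Pttg1 measured 82.4 and 83.6 CPM in siVirma at 0 h against 106 and 106 CPM in siNC1, and 115 and 118 CPM at 3 h against 79.6 and 94.1 CPM in siNC1. In siIgf2bp3 it measured 64.4 and 63.8 CPM at 0 h against 95.3 and 92.7 CPM in siNC2, and 142 and 148 CPM at 3 h against 68.7 and 65.4 CPM in siNC2. Cenpa and Ube2c behaved likewise, below control at 0 h (-0.56 ± 0.05 and -0.40 ± 0.05 in siVirma, -0.54 ± 0.04 and -0.43 ± 0.04 in siIgf2bp3) and above it over 1 to 3 h (0.21 ± 0.03 and 0.07 ± 0.03 in siVirma, 0.48 ± 0.02 and 0.28 ± 0.03 in siIgf2bp3). The ribosomal protein share moved with these genes and against Kif20a and Ccnb1: it was 11% and 10.8% in siVirma at 0 h against 16.5% and 16.9% in siNC1, and 19.0% and 19.5% in siIgf2bp3 at 3 h against 9.40% and 9.35% in siNC2. Its part in these differences was not tested.

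The slopes span the same libraries. The slope in siVirma was lower than in siNC1 for 5 genes (Kif20a, Tpx2, Bub1b, Nuf2 and Mad2l1) and higher for 0, where 2.91% of all genes tested were called higher and 6.02% lower. In siIgf2bp3 5 slopes were higher than in siNC2 and 18 lower, where 26.4% were called higher and 26% lower, led by Kif20a (-0.55 ± 0.11, adjusted p = 0.00227) and Birc5 (0.51 ± 0.10, adjusted p = 0.00209, both by edgeR). With 0 h left out in both arms, which also shortens the fit, 0 of the 35 slope differences and 0 of all genes were called by edgeR in either course. In siVirma 12 of the 16 libraries each took the lower calls to 0 when left out, and leaving out either siNC1 library of 1 h gave 14. Scaled to ribosomal protein genes 0 slopes were higher and 33 lower in siIgf2bp3, and 0 were called in siVirma. Of all genes called in siIgf2bp3 under that scaling 1.38% were higher.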

How the data were processed

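Total RNA was extracted with TRIzol and read from libraries made with either of 2 stranded kits on either of 2 instruments, and which served which library is not given. Of 98 samples in 49 groups of 2, 86 have columns in the 9 gene tables. What the authors deposited in these tables is the raw count of each of 21812 symbols. The genome build was mm39, and STAR 2.7.11b, Subread, Trim Galore, FastQC 0.12.1 and DESeq2 were among the tools, per the submitters' processing notes. How reads shared by paralogs were counted is not stated. The arm TBLC_PlaB- was taken from columns headed TBLC_S, since no other columns of its table could hold it. Peak lists of the m6A samples carry no gene and were not used here.

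Each table was filtered with filterByExpr, scaled with TMM and fitted with edgeR 4.0.16 quasi-likelihood in R 4.3.3 over all its genes, with Benjamini-Hochberg adjustment over all genes tested and a threshold of 0.05. Time courses were fitted with a mean per arm and hour, and with a slope per arm. The fits were tested on simulated data. The members and lists were chosen with earlier results of these data known. Genes named in each comparison are Cdk1, Ccnb1, Plk1, Aurkb, Bub1b, Cdc20, Cenpf, Top2a and Foxm1, the 6 largest rises and falls past the threshold (with groups that do not overlap, except for slopes), and up to 3 other mitosis genes with the lowest adjusted p. Further members were added to give counts within a role, and were chosen after their values were seen. The results were recomputed without the filter, with library totals or RLE scaling in place of TMM, with DESeq2 1.42.0, with a replicate block and without each library in turn, and for slopes also without 0 h and scaled to ribosomal protein genes. All 43 replicate pairs differed in their counts.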

Additional observations from a re-analysis of the deposited data

Results flagged for a closer look

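The slopes after actinomycin D differed between arms by a direct test of the difference, in log2 units per hour, and are given as values. Between diffTBLC and TBLC 7 mitosis genes differed, where 2.56% of all genes tested were called higher and 5.66% lower. All of these calls but that of Aurka were lost in some fit that left out 1 library. Scaled to ribosomal protein genes 0 were called in either direction. Aurka differed by 0.162, Kif11 by -0.196, Incenp by -0.165, Espl1 by -0.144, Tpx2 by -0.127, Kif20a by -0.124 and Ndc80 by -0.118.

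Between siVirma and siNC1 5 genes differed, where 2.91% of all genes tested were called higher and 6.02% lower. They were Bub1b (-0.176), Kif20a (-0.339), Tpx2 (-0.194), Nuf2 (-0.167) and Mad2l1 (-0.149). Each of these calls was lost in some fit that left out 1 library. Between siIgf2bp3 and siNC2 23 genes differed, where 26.4% of all genes tested were called higher and 26% lower. The calls of Cdk1, Plk1, Ttk, Ube2c, Kif2c and Cenpf were lost in some fit that left out 1 library. The higher slopes were those of Cdk1 (0.141), Birc5 (0.511), Pttg1 (0.495), Cenpa (0.433) and Ube2c (0.277). Lower slopes included those of Ccnb1 (-0.344), Plk1 (-0.192), Bub1b (-0.304), Cenpf (-0.383), Top2a (-0.330) and Foxm1 (-0.256). Kif20a (-0.547), Kif11 (-0.421), Prc1 (-0.411), Bub1 (-0.396) and Nek2 (-0.389) had the largest falls. With 0 h left out in both arms 0 of the 35 slope differences and 0 of all genes were called by edgeR in either course.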

How the results depend on the processing

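Limits first: with 2 libraries a group, small differences such as those of the siRNA libraries at steady state lie near the depth and spread of these tables, and slopes have no spike-in behind them. The cause of each change below was not tested. The directions of the counts for PrE-T against TBLC, diffTBLC against TBLC and the RIPs were kept by DESeq2, RLE scaling and no filter. With DESeq2, PrE-T against EPI-T had 2 higher, EPI-T against TBLC 0 lower, siVirma at steady state 0 lower (279 of all genes called), siMettl3 1 higher (48 of all genes), TBLC_PlaB- at 0 h 73 of all genes, diffTBLC minus TBLC slopes 2 higher, PlaB slopes 1 higher (203 of all genes) and siVirma slopes 1 higher and 8 lower (3172 of all genes). With RLE scaling siVirma slopes had 3 lower. With library totals PrE-T against EPI-T had 1 higher, PrE-T against TBLC 6 lower, diffTBLC at 0 h 8 lower, siVirma at 0 h 4 lower, siIgf2bp3 over 1 to 3 h 5 higher, slopes of diffTBLC 3 positive and 25 negative, slopes of TBLC 4 and 17, PlaB slopes 27 of all genes, siVirma slopes 0 lower (1 of all genes) and siIgf2bp3 slopes 3 higher. Of all genes called with library totals, 20.1% of slopes in diffTBLC and 26% in TBLC were positive. The share higher was 74.4% in siVirma at 0 h, 31.7% in siIgf2bp3 over 1 to 3 h and 28.5% in siIgf2bp3 slopes. With no filter PlaB slopes had 110 of all genes and siVirma slopes 0 lower (6 of all genes). With the replicate block siVirma slopes had 0 lower (406 of all genes); same-numbered libraries did not deviate together (correlations -0.046 to 0.041), so the numbers do not pair them, and the block changed no other count by over 1.5 times. Scaled to ribosomal protein genes, slopes were 0 positive and 35 negative in both diffTBLC and TBLC, diffTBLC minus TBLC had 0 and 0 (116 of all genes), PlaB slopes 14 of all genes, siVirma slopes 0 lower (0 of all genes) and siIgf2bp3 slopes 0 higher and 33 lower (11164 of all genes). Of all genes called under the ribosomal scaling, 0.205% of slopes in diffTBLC and 0.0945% in TBLC were positive. In siIgf2bp3 slopes 1.38% were higher. Without 0 h, diffTBLC minus TBLC had 7 higher and 15 lower (4728 of all genes) and PlaB slopes 6 and 11 (3128 of all genes). The siVirma and siIgf2bp3 slopes then had 0 and 0 (0 of all genes).

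Leaving out 1 library at a time gave the following ranges. PrE-T against EPI-T had 2 to 4 higher, EPI-T against TBLC 0 to 1 lower, TBLC_PlaB- at 0 h 0 to 1 lower (without TBLC_Ctrl replicate 1) and 70 to 207 of all genes, siVirma at steady state 1 to 2 higher, 0 to 1 lower and 495 to 606 of all genes, siMettl3 0 to 1 higher and 41 to 49 of all genes, and siIgf2bp3 over 1 to 3 h 7 to 13 higher (13 without its replicate 1 of 2 h or 3 h). Slopes of diffTBLC had 7 to 17 negative (7 and 9 without its libraries of 3 h), diffTBLC minus TBLC 1 to 3 higher, 0 to 9 lower and 630 to 1555 of all genes, PlaB slopes 8 to 179 of all genes, siVirma slopes 0 to 4 higher, 0 to 14 lower and 0 to 5126 of all genes, and siIgf2bp3 slopes 3 to 5 higher (3 without either siNC2 library of 0 h). Single genes that crossed zero when a library was left out were Cdk1 (-0.0996 to 0.107), Aurkb (-0.145 to 0.0422) and Foxm1 (-0.0874 to 0.118) in PrE-T against EPI-T. In TBLC_PlaB- at 0 h they were Cdk1 (-0.0455 to 0.00481), Ccnb1 (-0.0269 to 0.0132), Aurkb (-0.111 to 0.0130), Bub1b (-0.0404 to 0.0482), Cdc20 (-0.0487 to 0.0293) and Top2a (-0.0243 to 0.0466). At steady state they were Cdk1 (-0.120 to 0.0117) and Ccnb1 (-0.0169 to 0.0566) in siVirma and Cdk1 (-0.0597 to 0.0498) and Foxm1 (-0.0148 to 0.0150) in siMettl3, and Aurkb (-0.0359 to 0.105) in the Ythdf2 RIP. Among slopes they were Foxm1 in TBLC (-0.0229 to 0.0184), Cdk1 (-0.0586 to 0.0188), Plk1 (-0.0762 to 0.0560), Aurkb (-0.0166 to 0.0627), Bub1b (-0.108 to 0.00034), Cdc20 (-0.0493 to 0.0123) and Top2a (-0.0756 to 0.0217) in diffTBLC minus TBLC, and Ccnb1 (-0.00841 to 0.0239), Aurkb (-0.0395 to 0.0281) and Cdc20 (-0.0011 to 0.0323) in PlaB.

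The sign of these genes turned under another setting. In PrE-T against EPI-T Cdk1 was -0.0147 with DESeq2, -0.0146 with RLE scaling and -0.101 with library totals, and Foxm1 -0.0114, -0.0111 and -0.0982. With library totals Bub1b was -0.0536 in PrE-T against TBLC, Top2a -0.0328 in diffTBLC against TBLC, Aurkb -0.0911, Cdc20 -0.0332 and Ccnb2 -0.0481 in siIgf2bp3 over 1 to 3 h, and Cenpf -0.120 in the Igf2bp3 RIP. Slopes with library totals were Cdk1 -0.0804, Bub1b -0.0635, Cdc20 -0.0277, Mad2l1 -0.00871 and Ube2c -0.0111 in diffTBLC, Cdk1 -0.0358 in TBLC, Ccnb1 -0.00496 in PlaB, Aurkb -0.0184 and Cdc20 -0.00111 in siVirma and Cdc20 -0.0386 in siIgf2bp3. The slope difference of Aurkb between diffTBLC and TBLC was 0.0194 with DESeq2, 0.0200 with RLE scaling and 0.0239 without 0 h, and with no filter Bub1b in TBLC_PlaB- was -0.00245. Scaled to ribosomal protein genes, slopes of diffTBLC were Cdk1 -0.265, Bub1b -0.250, Cdc20 -0.213, Pttg1 -0.0879, Cenpa -0.118, Birc5 -0.124, Ccnb2 -0.145, Mad2l1 -0.193 and Ube2c -0.196, and those of TBLC were Cdk1 -0.222, Bub1b -0.164, Cdc20 -0.167, Ccnb2 -0.0828, Pttg1 -0.103, Cenpa -0.107, Mad2l1 -0.131, Tpx2 -0.136 and Cdc25b -0.162. The same scaling gave Cdk1 -0.00822, Ccnb1 -0.0376 and Cdc20 -0.0327 in PlaB slopes, Cdk1 -0.222, Aurkb -0.252 and Cdc20 -0.245 in siVirma slopes, and Cdk1 -0.456, Cdc20 -0.508, Birc5 -0.111, Pttg1 -0.132, Cenpa -0.189 and Ube2c -0.336 in siIgf2bp3 slopes. Without 0 h, slopes were Bub1b -0.0372 in diffTBLC, Cdk1 0.0165, Plk1 0.0148 and Cdc20 0.0198 in diffTBLC minus TBLC, Ccnb1 -0.0755 in PlaB, Cdk1 -0.0719, Ccnb1 0.00864, Aurkb -0.0108, Cdc20 -0.0431, Cenpf 0.0761 and Foxm1 0.0192 in siVirma, and Aurkb 0.0230 in siIgf2bp3.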

Other observations

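TBLC2, undifferentiated cells in a table with no comparison group, were left out of the comparisons. Summed CPM of the 35 mitosis genes was 3547 and 3646 in its 2 libraries. Ccnb1 measured 209 and 223 CPM, Cdk1 82.8 and 90.5 CPM, Cdc20 153 and 149 CPM, Top2a 381 and 388 CPM, Cdc25b 25.2 and 28.1 CPM and Foxm1 66.5 and 68.8 CPM. Fibroblast and feeder markers summed to 2795 and 2707 CPM in the same libraries, and 2-cell markers to 119 and 125 CPM. These levels were scaled within their own table.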
